A study of Mus musculus with 9 samples.

Results

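Rab GTPases are small membrane-bound switches of the Ras superfamily, encoded by a large gene family whose members each mark a step of vesicle traffic. In the GTP-bound state a Rab recruits effectors such as tethers and motor proteins, exchange factors load GTP, and GTPase-activating proteins end the active state. Endothelial cells use them for endocytosis, receptor recycling, lysosomal delivery and the release of Weibel-Palade bodies, the storage granules that hold von Willebrand factor and P-selectin. The genes described were all rows of the count table whose mouse symbol is Rab followed by a number and an optional letter, which gave 59 of 52636 rows. Genes of Rab effectors and regulators were kept apart from these. All 59 were annotated as protein-coding.

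The libraries came from liver endothelial cells of mice, purified by flow sorting of live cells without CD45, with CD31 on their surface, and tagged in the living animal by an antibody to VE-cadherin. Both groups were treated with tamoxifen and taken at day 7. There were 4 control libraries with the genotype label wild type and 5 libraries labelled as a double knockout of Erg and Fli1, which encode ETS transcription factors. The Cre driver, the deleted exons, the strain and the ages of the mice are not stated in the labels. Nothing says that each library came from its own animal, so a p-value here reflects library-to-library spread, which may be technical. Levels are given as CPM, a count scaled by TMM and by library size, unless TPM is named, and a change was called at a Benjamini-Hochberg adjusted p under 0.05 over all genes in edgeR's quasi-likelihood test.

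Libraries held between 26791371 and 36401682 counts. Counts of the targeted genes went opposite ways. Erg fell from 311.6 ± 17.8 (SD, n = 4) to 142.9 ± 10.9 CPM (SD, n = 5), whereas Fli1 rose from 100.1 ± 8.01 to 147.4 ± 22.5 CPM. Since the deleted exons are not stated, counts over a whole gene cannot show whether either gene was deleted. The second group is therefore called libraries labelled knockout, and every direction is relative to that label. All 8 endothelial markers were tested, with a summed level of 20088 to 21727 CPM in controls and 14043 to 21579 CPM in the libraries labelled knockout, where replicates 2 and 3 were lowest at 14330 and 14043 CPM. Of these 8, 1 was called, Tek, which was lower (916 ± 57.6 to 604 ± 138 CPM, edgeR adjusted p = 0.0218, but 0.0556, 0.0544 and 0.0593 without control replicate 1, 2 or 3, over a range of 0.00253 to 1). Lyve1, a sinusoidal marker, lay at 815 to 1191 CPM in controls and at 14.5, 937, 259.7, 29.5 and 28.1 CPM in the libraries labelled knockout and did not pass (edgeR adjusted p = 0.200). The part of such shifts in the Rab results was not tested. Summed markers of other cells lay at 158 to 369.97 and 19.6 to 214 CPM for hepatocytes (9 of 10 listed genes matched), 111 to 412 and 82.1 to 574 CPM for macrophages, 4.29 to 10.2 and 2.64 to 20.2 CPM for stellate and smooth muscle cells, 5.82 to 11.7 and 7.98 to 14.8 CPM for lymphocytes, 17.8 to 33.7 and 8.08 to 53.2 CPM for erythroid cells and 4.61 to 10.01 and 3.41 to 22.99 CPM for cholangiocytes. In these 6 lists edgeR called 0 genes, though 3 hepatocyte genes and 1 stellate and smooth muscle gene had an unadjusted p under 0.05, and DESeq2 called the 3 hepatocyte genes. Platelet markers were higher for 6 of 8 tested genes (27.9 to 40.7 against 70.8 to 143 CPM) and neutrophil markers for 3 of 4 (1.17 to 6.34 against 8.42 to 25.2 CPM).

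Of the 59 Rab genes, 51 passed the count filter, and 16 of these were called, 8 lower and 8 higher in the libraries labelled knockout. That is 31.4% of the tested members, against 29.3% of all 14583 genes tested (14.5% higher and 14.8% lower), so the family as a whole changed about as often as other genes. With a mean of at least 50 CPM in either group, 4 of 23 Rab genes were called, beside 39.2% of all 4716 genes that abundant. The lower members were Rab3b, Rab27a, Rab32, Rab29, Rab3d, Rab6b, Rab23 and Rab40c, and the higher members were Rab44, Rab34, Rab4a, Rab43, Rab20, Rab31, Rab24 and Rab11b. A change of at least 2-fold was called for 4 lower and 3 higher members, where 5.59% and 5.72% of all genes were called at that size. Of the 51 tested members, 14 were called with no library of one group within the range of the other, as were 24.5% of all genes tested. Their median log2 fold change was 0.05 and the median of its size 0.35, against 0.01 and 0.30 over all genes tested. The count of 8 higher members was 4 without control replicate 1, 5 without control replicate 2 and 5 without control replicate 4, while that of lower members lay between 8 and 9 when each library was left out.

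**Figure D1:**
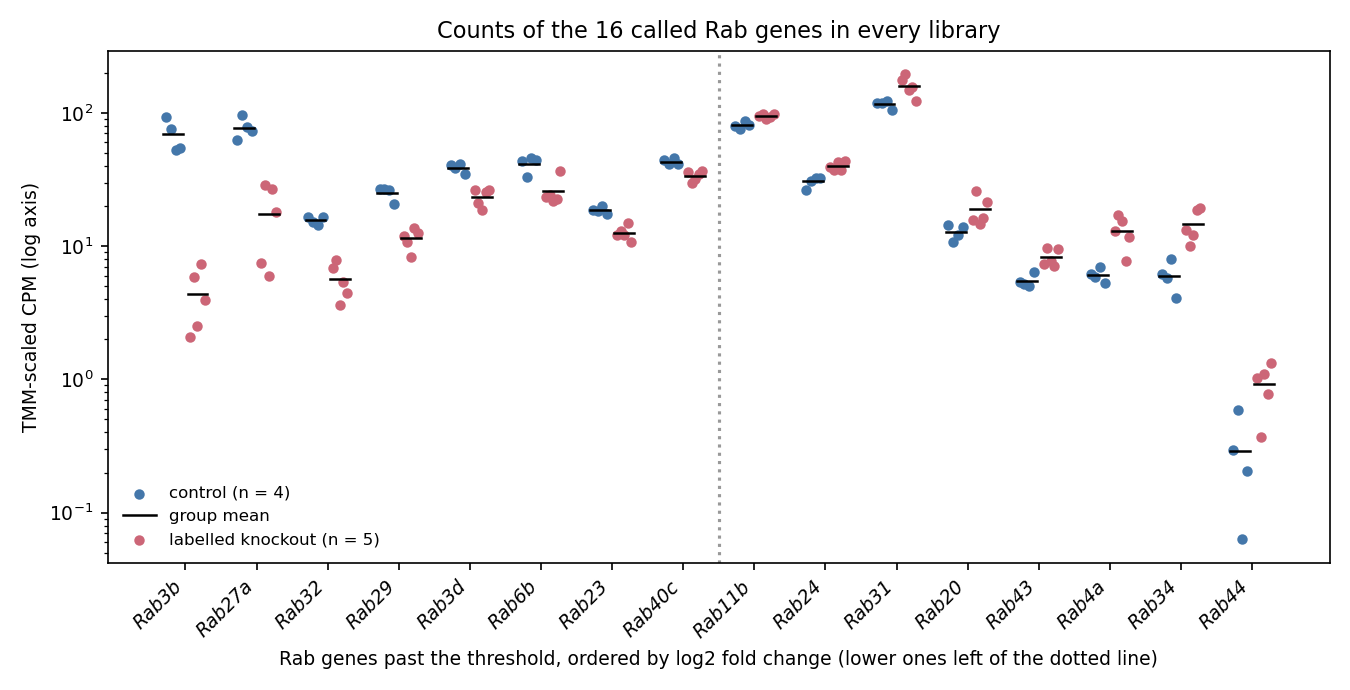
TMM-scaled CPM (log axis) of the 16 called Rab genes in each of 4 control libraries (blue) and 5 libraries labelled knockout (red), with group means as black lines and genes ordered by log2 fold change. Rab3b shows the widest gap, and Rab6b and Rab44 are the genes whose groups overlap.

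The most abundant members per unit of transcript length did not pass the threshold. Rab5c, an early endosome GTPase, led at 948 ± 85.4 TPM in controls and 873 ± 103 TPM in the libraries labelled knockout. Rab7, which directs late endosomes to lysosomes, followed at 526 ± 26.97 and 466 ± 39.4 TPM. Rab2a, which acts between endoplasmic reticulum and Golgi, lay at 341 ± 24.8 and 328 ± 38.7 TPM, and Rab1b at 270 ± 17.2 and 295 ± 38.7 TPM. These 4 held the first 4 places of the family in both groups, and for each of them the libraries of the groups overlapped. Summed over the family, the level was 3695 ± 184 CPM in controls and 3517 ± 216 CPM in the libraries labelled knockout, with overlapping ranges of 3493 to 3936 and 3212 to 3777 CPM.

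**Figure D2:**
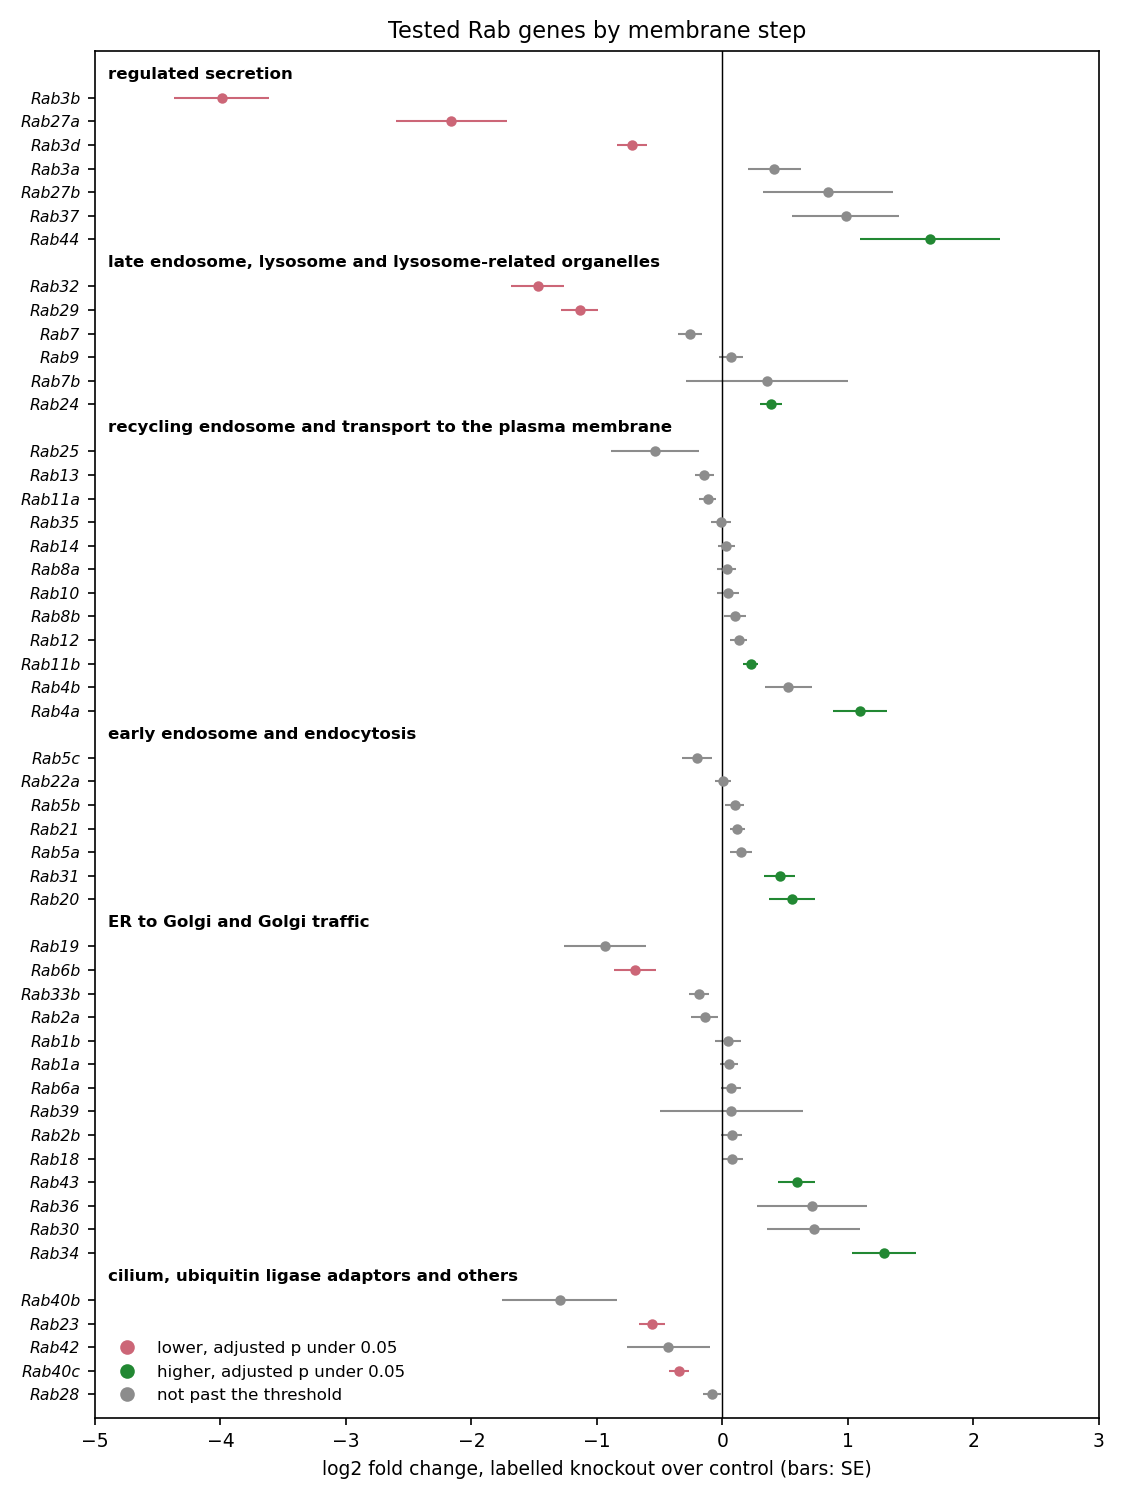
Log2 fold change of the 51 tested Rab genes (points, with SE as bars), libraries labelled knockout over control, grouped by the membrane step assigned to each member. The 3 lower secretory members stand at the top and the Golgi and recycling groups lie mostly near 0.

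The GTPases of regulated secretion sit on secretory granules and dock them at the plasma membrane. Of 9, 7 were tested, with 3 lower and 1 higher, beside 29.3% of all genes called. Their median log2 fold change was 0.41, since the 4 members that were not lower had positive values. Rab3b (chromosome 4, 108879063 to 108943324, plus strand, GRCm38), which associates with secretory vesicles, had 93.5, 75.8, 52.4 and 54.0 CPM in control replicates 1 to 4 and 2.08, 5.83, 2.52, 7.33 and 3.97 CPM in replicates 1 to 5 of the libraries labelled knockout. Every library labelled knockout lay far below every control. Rab3b fell 15.9-fold (log2 fold change -3.99 ± 0.38, SE, edgeR adjusted p = 1.08e-04), and it was the member called under all 20 alternatives tried, a test against 2-fold included. In sorted bulk cells, fewer cells with a transcript and less of it per cell cannot be told apart.

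Rab27a (chromosome 9, 73044854 to 73097629, plus strand), which drives the docking of Weibel-Palade bodies, had 62.1, 96.8, 77.8 and 73.6 CPM in controls. Its libraries labelled knockout had 7.52, 28.5, 6.002, 26.8 and 18.03 CPM. The groups were apart, with a wide spread in the second, where replicates 1 and 3 were the lowest for both Rab27a and Rab3b and replicates 2 and 4 the highest. Rab27a fell 4.47-fold (log2 -2.16 ± 0.44, SE, edgeR adjusted p = 0.00580). A test against 2-fold did not pass (glmTreat adjusted p = 0.0894, the highest of its alternatives, the lowest being 2.77e-06).

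Rab3d (chromosome 9, 21907491 to 21918192, minus strand), a relative of Rab3b on granules of exocrine and endothelial cells, had 40.5, 38.5, 41.4 and 34.6 CPM in controls. In the libraries labelled knockout it had 26.3, 21.0, 18.6, 25.4 and 26.4 CPM. No library of one group reached the other, and the fall was 1.65-fold (log2 -0.72 ± 0.12, SE, edgeR adjusted p = 0.00175). Rab3a, best known from synaptic vesicles, did not pass (21.8 ± 3.22 and 29.05 ± 8.89 CPM, edgeR adjusted p = 0.169). Exons of Rab3a overlap those of Mpv17l2, a tested gene on the other strand, so its level and share may hold reads of that gene. Rab3c had 0 counts in every library, which allows up to 0.0780 to 0.1105 CPM depending on the library. Within the Rab3 genes, Rab3b held 50.1% ± 5.91 of their summed TPM in controls and 6.12% ± 2.69 in the libraries labelled knockout, and Rab3a went from 25.6% ± 2.66 to 64.7% ± 7.96. Their sum was 152 ± 25.2 and 83.0 ± 14.2 TPM.

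The labels name 2 ETS factors as targets, so the 250 bases before the annotated starts of these 3 lower members are shown, from RefSeq promoters of GRCm38.p6, with the ETS core GGAA, or TTCC where it lies on the other strand, in capitals.
Rab3b, chr4:108878820-108879069, plus strand: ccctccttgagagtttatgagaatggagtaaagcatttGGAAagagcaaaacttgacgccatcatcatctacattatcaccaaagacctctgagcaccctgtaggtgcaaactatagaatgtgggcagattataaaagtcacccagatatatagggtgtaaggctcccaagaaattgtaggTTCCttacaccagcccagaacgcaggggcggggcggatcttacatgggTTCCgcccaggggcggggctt
Rab27a, chr9:73044560-73044809, plus strand: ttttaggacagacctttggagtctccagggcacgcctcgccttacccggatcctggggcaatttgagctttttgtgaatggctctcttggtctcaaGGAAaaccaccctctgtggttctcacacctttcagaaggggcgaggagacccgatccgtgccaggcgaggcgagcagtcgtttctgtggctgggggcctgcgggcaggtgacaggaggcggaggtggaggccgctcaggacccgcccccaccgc
Rab3d, chr9:21918184-21918433, minus strand: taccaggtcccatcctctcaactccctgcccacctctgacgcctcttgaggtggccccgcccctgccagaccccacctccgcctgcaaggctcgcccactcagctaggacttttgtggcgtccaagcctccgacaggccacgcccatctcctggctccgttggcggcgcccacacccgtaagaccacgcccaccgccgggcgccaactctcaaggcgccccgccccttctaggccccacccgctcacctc
The Rab3b window held 3 cores, at 212, 69 and 21 bases before the start, that of Rab27a 1, at 154 bases, and that of Rab3d 0. A core on either strand occurred in 93.4% of all 32851 promoter windows of this length, so its presence sets no gene apart. The longer letters CCGGAAG and CAGGAAG, searched on both strands and each containing the core, occurred in 6.91% and 10.8% of all windows and in none of these 3. A match is a description of letters and not a binding site, and Rab27a has a second annotated start whose window is not shown.

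Rab44 was the secretory member called higher, at the lowest level of all called members. It encodes a large Rab with calcium-binding domains known from granules of blood cells. It had 0.295, 0.593, 0.0630 and 0.207 CPM in controls (37 counts in all) and 1.02, 0.370, 1.09, 0.773 and 1.34 CPM in the libraries labelled knockout. The groups overlapped, at control replicate 2 and replicate 2 of the second group. Its rise of 3.15-fold (log2 1.65 ± 0.56, SE, edgeR adjusted p = 0.0489) ended without control replicate 1, 3 or 4 (adjusted p = 0.108, 0.0969 and 0.115) and when replicate 1, 3, 4 or 5 was dropped from the libraries labelled knockout (0.0812, 0.0816, 0.0630 and 0.0916). Without control replicate 2 it was 4.81-fold. The call also ended with upper-quartile factors (0.0502), with no filter on counts (0.0555) and when sex was added to the model (0.0951). Over its alternatives the adjusted p lay between 0.0184 and 0.615. The platelet and neutrophil marker sums given above were higher in the libraries labelled knockout. In replicates 1 to 5 of these, platelet sums were 139, 139, 143, 70.8 and 88.0 CPM. Neutrophil sums in the same order were 10.9, 11.9, 25.2, 14.5 and 8.42 CPM. The part of such cells in the Rab44 level was not tested. Rab27b, the platelet-enriched paralogue of Rab27a, lay at 0.164 to 0.502 and 0.221 to 1.07 CPM and did not pass (1.80-fold, edgeR adjusted p = 0.2499). Rab37, of mast cell granules, did not pass either (0.118 to 0.406 and 0.370 to 0.847 CPM, 1.98-fold, edgeR adjusted p = 0.111). Rab26, of secretory granule maturation, had 30 counts over all libraries and was not tested.

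Among members of late endosomes, lysosomes and lysosome-related organelles, 6 of 8 were tested, with 2 lower and 1 higher. That is 50% called, beside 29.3% of all genes. Rab32 and Rab29 belong to 1 branch of the family, known from lysosome-related organelles such as melanosomes, and Rab29 recruits the kinase LRRK2 to membranes. Rab32 (chromosome 10, 10545002 to 10558265, minus strand) had 16.5, 15.1, 14.5 and 16.6 CPM in controls. Its libraries labelled knockout had 6.88, 7.90, 3.64, 5.38 and 4.44 CPM, all below the lowest control. The fall was 2.78-fold (log2 -1.47 ± 0.21, SE, edgeR adjusted p = 8.68e-04).

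Rab29 (chromosome 1, 131867224 to 131872887, plus strand) had 26.9, 26.6, 26.2 and 20.6 CPM in controls, control replicate 4 standing below the other 3. In the libraries labelled knockout it had 11.9, 10.7, 8.32, 13.7 and 12.5 CPM, again without overlap. It fell 2.20-fold (log2 -1.14 ± 0.15, SE, edgeR adjusted p = 5.15e-04). Tests against 2-fold did not pass for Rab32 (glmTreat adjusted p = 0.125, other alternatives from 1.36e-09) or Rab29 (0.747, from 1.34e-10). Rab38, the third gene of the branch, had 10 counts over all libraries and was not tested. Their summed level was 93.9 ± 5.99 TPM in controls and 42.7 ± 6.48 TPM in the libraries labelled knockout, with Rab29 holding 71.6% ± 3.61 and 76.2% ± 5.51 of it.

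The upstream windows of Rab32 and Rab29, shown because both genes fell, read as follows.
Rab32, chr10:10558208-10558457, minus strand: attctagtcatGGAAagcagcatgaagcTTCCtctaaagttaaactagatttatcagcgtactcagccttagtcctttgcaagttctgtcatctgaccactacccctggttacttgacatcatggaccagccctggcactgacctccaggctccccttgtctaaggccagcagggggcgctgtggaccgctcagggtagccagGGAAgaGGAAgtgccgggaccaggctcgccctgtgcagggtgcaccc
Rab29, chr1:131867027-131867276, plus strand: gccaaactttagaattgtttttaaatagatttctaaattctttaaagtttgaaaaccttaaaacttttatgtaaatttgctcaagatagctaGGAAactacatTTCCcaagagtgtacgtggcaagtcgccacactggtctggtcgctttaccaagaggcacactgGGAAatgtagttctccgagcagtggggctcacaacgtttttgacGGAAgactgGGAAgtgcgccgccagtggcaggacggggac
The script found 4 cores before the Rab32 start, at 239, 222, 47 and 41 bases, and 5 before the Rab29 start, at 158, 147, 84, 40 and 31 bases. Neither window held CCGGAAG or CAGGAAG. Among 60 Rab windows, CCGGAAG occurred in 3, before Rab8a, Rab11a and Rab24, and CAGGAAG in 9, of which 1 precedes a called member, Rab43. Rab24 and Rab43 were called higher, while Rab8a and Rab11a were not called, and Rab15, with CAGGAAG, was not tested. Of all tested Rab members 31.4% were called. With so few windows, no relation between a motif and a call can be read. The motif shares of the Rab windows were 5% and 15%, beside 6.91% and 10.8% of all windows.

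Rab24, a member linked to autophagy, rose modestly. It had 26.3, 30.9, 32.4 and 32.5 CPM in controls and 39.2, 37.1, 43.0, 37.0 and 43.5 CPM in the libraries labelled knockout, which did not overlap (1.31-fold, log2 0.39 ± 0.09, SE, edgeR adjusted p = 0.00956). Exons of Rab24 overlap those of Prelid1 on the other strand, and whether the counting used strand is unknown here. Rab7 missed the threshold (log2 -0.26 ± 0.10, SE, edgeR adjusted p = 0.0715) with 324 to 379.6 CPM in controls and 247 to 326 CPM in the libraries labelled knockout, which overlap in 1 library pair. It passed in DESeq2 (adjusted p = 0.0341), the one alternative in which it did. Rab9, of transport from late endosomes to the Golgi, lay at 16.2 to 19.7 and 16.9 to 21.0 CPM, and its paralogue Rab9b had 0 counts in all libraries. Rab7b was low and did not pass (0.189 to 1.08 and 0.234 to 2.38 CPM).

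Of the recycling members, which return receptors to the cell surface, 12 of 13 were tested, with 2 higher and 0 lower. The share called was 16.7%, beside 29.3% of all genes. Rab4a (chromosome 8, 123805985 to 123835287, plus strand), which acts in fast recycling from early endosomes, had 6.22, 5.90, 6.93 and 5.26 CPM in controls. Its libraries labelled knockout had 13.1, 17.0, 15.5, 7.77 and 11.8 CPM, with replicate 4 closest to the controls and still above them. Rab4a rose 2.14-fold (log2 1.10 ± 0.21, SE, edgeR adjusted p = 0.00419). Its paralogue Rab4b pointed the same way without passing (3.64 ± 0.491 and 5.24 ± 0.986 CPM, 1.44-fold, edgeR adjusted p = 0.0595). Their summed level was 21.0 ± 1.42 and 42.2 ± 7.73 TPM.

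Rab11b, of slow recycling through the perinuclear compartment, had 75.8 to 87.5 CPM in controls and 90.5 to 98.5 CPM in the libraries labelled knockout. The groups did not overlap, but the difference was small at 1.17-fold (log2 0.23 ± 0.06, SE, edgeR adjusted p = 0.0229). It ended without control replicate 1 or 2 (adjusted p = 0.0638 and 0.0850) and without a count filter (0.0889), with other alternatives from 0.00262 to 1. Exons of Rab11b overlap those of Gm17251, a tested gene on the other strand. Rab11a, its more abundant paralogue, did not pass (log2 -0.12 ± 0.07, SE), and Rab11b went from 23.98% ± 0.452 to 28.6% ± 1.57 of their summed TPM. Rab10, the most abundant member of the group, which carries cargo to the plasma membrane, had 177, 156, 162 and 157 CPM in controls and 189, 159, 147, 181 and 165 CPM in the libraries labelled knockout. Those ranges overlap throughout (log2 0.05 ± 0.09, SE). Rab8a, Rab8b, Rab12, Rab13, Rab14 and Rab35 had log2 fold changes between -0.14 and 0.13, with none past the threshold. Rab25, an epithelial member, reached at most 0.524 CPM in any library, and Rab15 had 3 counts in all.

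Early endosome members control uptake and sorting after internalisation, and 7 of 8 were tested, with 2 higher and 0 lower. These calls make up 28.6%, beside 29.3% of all genes. Rab31, which moves cargo between the trans-Golgi network and endosomes, had 119, 119, 123 and 105 CPM in controls and 175, 195, 148, 156 and 123 CPM in the libraries labelled knockout. Replicate 5 of the latter lay just above the highest control (123.4 against 122.7 CPM). The rise was 1.37-fold (log2 0.46 ± 0.13, SE, edgeR adjusted p = 0.0214). It ended without control replicate 1, 2 or 4 (adjusted p = 0.0506, 0.0533 and 0.0603), within a range of 0.00378 to 1 over all alternatives. Rab31 and its close relative Rab22a (log2 0.00 ± 0.06, SE) summed to 178 ± 6.33 and 236 ± 23.9 TPM.

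Rab20, of early endosomes and phagosomes, had 14.4, 10.8, 12.1 and 14.0 CPM in controls and 15.6, 25.9, 14.8, 16.3 and 21.5 CPM in the libraries labelled knockout. The lowest of the latter stood close to the highest control. Its rise of 1.47-fold (log2 0.55 ± 0.18, SE, edgeR adjusted p = 0.0434) ended without any 1 control (replicates 1 to 4, adjusted p = 0.0645, 0.124, 0.104 and 0.0649) and on dropping replicate 2 or 5 from the libraries labelled knockout (0.0648 and 0.0830). In limma-voom it did not pass (adjusted p = 0.0595). Over all alternatives its adjusted p lay between 0.0173 and 1. Replicate 2, where Rab20 was highest, also had the highest macrophage marker sum, 574 CPM. Replicate 5, where Rab20 was next highest, had the lowest macrophage marker sum, 82.1 CPM. The part of such cells was not tested. Exons of Rab20 overlap a tested gene on the other strand, E230013L22Rik.

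Rab5 genes, which organise early endosomes, kept their order. Rab5c had 597, 539, 509 and 464 CPM in controls and 535, 414, 395, 492 and 451 CPM in the libraries labelled knockout, with overlapping ranges (log2 -0.20 ± 0.12, SE, edgeR adjusted p = 0.223). It held 88.6% ± 0.382 of the summed Rab5 TPM in controls and 86.1% ± 1.05 in the libraries labelled knockout. Rab5a and Rab5b had log2 fold changes of 0.15 ± 0.08 and 0.10 ± 0.08 (SE), and Rab21, which helps integrins to be taken up, 0.12 ± 0.06. None of the 3 passed. Rab17, of polarised epithelia, had 7 counts in all libraries together.

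**Figure D3:**
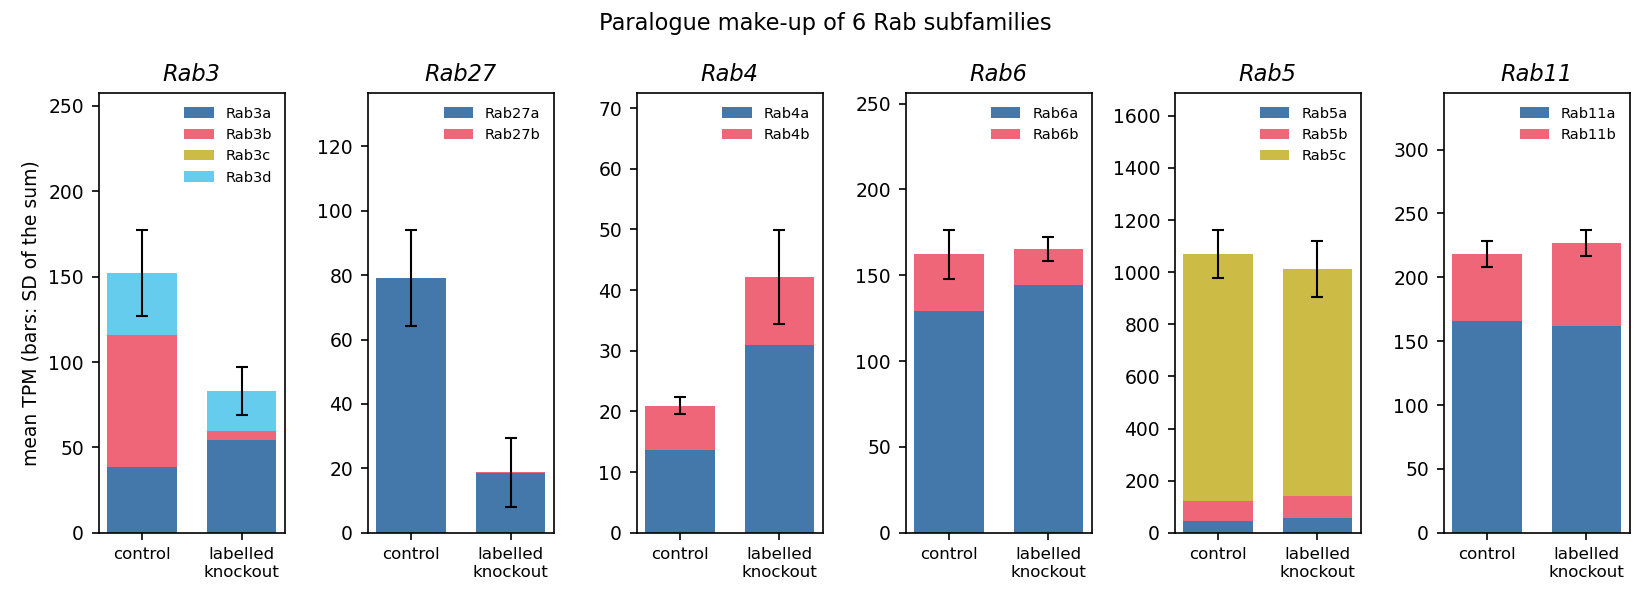
Mean TPM of 6 Rab subfamilies in controls and in libraries labelled knockout, stacked by paralogue, with the SD of the summed level as black bars (n = 4 and 5). Rab3b leaves the Rab3 stack and the Rab27 stack drops, while the Rab5 stack stands at 1069 and 1013 TPM and the Rab11 stack at 218 and 227 TPM.

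For the endoplasmic reticulum and Golgi, 14 of 16 annotated members were tested, with 2 higher and 1 lower. Called members were 21.4% of those tested, beside 29.3% of all genes. Rab34 (chromosome 11, 78188430 to 78192193, plus strand) was counted in this group, though it also positions lysosomes and takes part in forming cilia. It had 6.22, 5.75, 8.04 and 4.05 CPM in controls. Libraries labelled knockout had 13.1, 9.94, 12.2, 18.7 and 19.5 CPM, with replicates 4 and 5 highest. All of them exceeded the controls, and the rise was 2.44-fold (log2 1.29 ± 0.25, SE, edgeR adjusted p = 0.00437). For contrast with the members that fell, the window before the outer of 2 annotated starts of Rab34, a gene that rose, reads as follows.
Rab34, chr11:78188177-78188426, plus strand: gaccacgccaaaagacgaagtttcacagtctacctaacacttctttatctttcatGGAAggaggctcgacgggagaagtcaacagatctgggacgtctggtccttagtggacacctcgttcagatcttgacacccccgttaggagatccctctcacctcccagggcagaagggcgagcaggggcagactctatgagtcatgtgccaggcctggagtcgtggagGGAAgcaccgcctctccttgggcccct
It held 2 cores, at 195 and 27 bases before the start, and neither longer motif.

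Rab43, of traffic into the Golgi, had 5.37, 5.22, 4.98 and 6.38 CPM in controls and 7.30, 9.69, 7.80, 7.07 and 9.55 CPM in the libraries labelled knockout. The groups did not overlap, and the rise was 1.51-fold (log2 0.59 ± 0.15, SE, edgeR adjusted p = 0.0140). Rab6b, a Golgi isoform best known from neurons, had 43.2, 32.9, 46.0 and 44.3 CPM in controls and 23.4, 24.3, 21.8, 22.5 and 36.6 CPM in the libraries labelled knockout. Replicate 5 of the latter lay above control replicate 2, so the groups overlapped, and the fall was 1.62-fold (log2 -0.69 ± 0.17, SE, edgeR adjusted p = 0.0118). Rab6a, the broadly expressed isoform, did not pass (log2 0.07 ± 0.08, SE), and the share of Rab6b in their summed TPM was 20.1% ± 1.33 in controls and 13.0% ± 3.55 in the libraries labelled knockout.

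The abundant Golgi members moved little. Rab2a had 199, 178, 195 and 165 CPM in controls and 178, 156, 140.2, 196 and 167 CPM in the libraries labelled knockout, which overlap (log2 -0.14 ± 0.11, SE). Rab1a, Rab1b, Rab2b and Rab18 had log2 fold changes between 0.04 and 0.08 and did not pass. At no more than 2.26 CPM in any library, Rab19 (1.92-fold lower, edgeR adjusted p = 0.0551), Rab30 (1.65-fold higher, 0.174) and Rab36 (1.64-fold higher, 0.252) did not pass. The groups did not overlap for Rab19 (0.662 to 0.874 and 0.234 to 0.626 CPM), and it passed without replicate 4 of the libraries labelled knockout (2.25-fold, adjusted p = 0.0215) and in limma-voom (0.0371). Rab33b (28.5 to 32.4 and 23.6 to 28.7 CPM, edgeR adjusted p = 0.120) and Rab39 (0.126 to 0.687 and 0.200 to 0.864 CPM) did not pass either. Rab33a and Rab39b, with 40 and 2 counts over all libraries, were not tested.

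Of the 5 other members, all tested, 2 were lower and 0 higher, or 40% called beside 29.3% of all genes. Rab23, a negative regulator of Hedgehog signalling, had 18.6, 18.3, 19.98 and 17.4 CPM in controls and 12.2, 12.9, 12.2, 14.99 and 10.8 CPM in the libraries labelled knockout. Without overlap, it fell 1.47-fold (log2 -0.56 ± 0.10, SE, edgeR adjusted p = 0.00331). Rab40c, which joins a ubiquitin ligase through a SOCS box, had 44.1, 41.3, 45.6 and 41.2 CPM in controls and 36.2, 29.96, 31.8, 34.8 and 36.5 CPM in the libraries labelled knockout. Its fall was small at 1.27-fold (log2 -0.35 ± 0.08, SE, edgeR adjusted p = 0.00905). Rab40b missed the threshold (2.46-fold lower, edgeR adjusted p = 0.0588) at no more than 0.916 CPM in any library, and passed without control replicate 4 (3.05-fold, adjusted p = 0.0110). Rab28, of photoreceptor cilia, did not pass (log2 -0.08 ± 0.07, SE), nor did Rab42 (0.738 to 1.39 and 0.442 to 1.16 CPM).

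Genes that act on or with Rab proteins were read from lists, and their counts are given beside the 29.3% of all genes called. Many list genes are abundant, and 39.2% of all genes with a mean of at least 50 CPM in either group were called. The list shares below should be read against both values. The lipid-attachment and membrane-extraction machinery, which every Rab needs, was nearly level, with 1 lower of 8 tested, or 12.5%, and a median log2 fold change of 0.04. The Rab escort protein gene Chml had 12.9 ± 1.998 and 9.41 ± 1.09 CPM (1.37-fold lower, edgeR adjusted p = 0.0268). That call ended without control replicate 3 or 4 (adjusted p = 0.0522 and 0.0683), on dropping replicate 1, 3 or 5 from the libraries labelled knockout (0.0560, 0.0532 and 0.0565) and with a sex term (0.0596), its alternatives ranging from 0.00847 to 1. Gdi2, which encodes a chaperone that extracts Rab proteins from membranes, did not pass (319.6 ± 29.6 and 317 ± 20.8 CPM).

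Exchange factors included 12 lower and 6 higher of 39 tested, or 46.2% called, with a median log2 fold change of 0.03. Among those with the smallest p, the Rab5 exchange factor gene Rin2 fell from 283 ± 48.7 to 94.3 ± 13.7 CPM (2.999-fold, log2 -1.58 ± 0.14, SE, edgeR adjusted p = 7.16e-05). Als2cl fell 3.34-fold (275 ± 45.3 to 82.4 ± 27.9 CPM). The DENN domain gene Dennd2c fell 2.75-fold (52.6 ± 10.3 to 19.2 ± 4.56 CPM). Higher were the DENN domain genes Dennd4a (12.2 ± 0.599 to 25.3 ± 6.53 CPM) and Dennd1c (2.99 ± 0.976 to 10.3 ± 3.14 CPM), and Rinl, a relative of Rin2 (29.1 ± 1.82 to 41.6 ± 6.46 CPM). Rab3il1, an exchange factor gene named after its values were seen, fell 2.91-fold from 199 ± 12.9 to 68.5 ± 34.9 CPM (edgeR adjusted p = 0.0128, but 0.0562 with no filter on counts, over a range of 1.20e-04 to 0.399).

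GTPase-activating proteins included 3 lower and 3 higher of 36 tested, or 16.7%, with a median log2 fold change of -0.04. Tbc1d1, which acts on Rab proteins of glucose transporter vesicles, fell 1.73-fold (150.2 ± 14.3 to 86.7 ± 11.5 CPM, edgeR adjusted p = 6.66e-04). Tbc1d25 fell 1.68-fold, and Tbc1d2 fell 3.90-fold at a low level (2.13 ± 0.399 to 0.542 ± 0.445 CPM), or 5.99-fold without replicate 2 of the libraries labelled knockout. Sgsm3 rose 1.83-fold (40.1 ± 2.60 to 73.3 ± 11.4 CPM). Tbc1d15, which acts on Rab7, rose 1.29-fold (edgeR adjusted p = 0.0254), a call that ended without control replicate 1, 2 or 4 (adjusted p = 0.0549, 0.0714 and 0.0694, over a range of 0.00680 to 1). Tbc1d10c (0.822 ± 0.434 to 1.82 ± 0.246 CPM, adjusted p = 0.0355) lost its call without control replicate 1 or 4 (edgeR adjusted p = 0.0958 and 0.0734), on dropping replicate 1, 2, 3 or 4 from the libraries labelled knockout (0.0553, 0.0540, 0.0599 and 0.0588) and with a sex term (0.0613), over a range of 0.00661 to 1.

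Effectors included 12 lower and 8 higher of 45 tested, or 44.4%, with a median log2 fold change of -0.05. The count of 20 was 13 without control replicate 1 and 12 without control replicate 2. Rph3al, an effector of Rab3 and Rab27 proteins in secretion, fell 5.43-fold (6.91 ± 2.43 to 1.26 ± 0.402 CPM, log2 -2.44 ± 0.30, SE, edgeR adjusted p = 3.62e-04). The recycling effector gene Micall1 fell 1.998-fold (107 ± 15.1 to 53.8 ± 12.2 CPM), and Acap2, an effector of Rab35, fell 1.39-fold. Bicd1, a dynein adaptor for Rab6 vesicles, rose 19.1-fold from 0.371 ± 0.176 to 7.11 ± 6.23 CPM, or 11.7-fold without replicate 2 of the libraries labelled knockout. Trak1, a kinesin and dynein adaptor, rose 1.48-fold, and Appl2, of early endosomes, 1.83-fold (343 ± 30.3 to 628 ± 231 CPM, edgeR adjusted p = 0.0185, but 0.0580 without control replicate 1, over a range of 9.35e-04 to 1). Lrrk2, which encodes the kinase that Rab29 recruits and was named after its values were seen, fell 2.18-fold from 119 ± 5.53 to 54.5 ± 21.9 CPM (edgeR adjusted p = 0.0103).

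Genes of Weibel-Palade body cargo and release included 10 lower and 6 higher of 37 tested, or 43.2%, with a median log2 fold change of -0.19. Of the 10 lower, Rab3b, Rab3d and Rab27a are described above. P-selectin, Selp, fell from 46.0 ± 6.37 to 18.5 ± 5.93 CPM (2.48-fold, log2 -1.31 ± 0.24, SE, edgeR adjusted p = 0.00307). Endothelin, Edn1, a stored cargo, rose from 16.03 ± 2.88 to 44.1 ± 14.2 CPM. The membrane fusion genes Stxbp3 (48.6 ± 3.98 to 78.3 ± 7.26 CPM) and Vamp8 (34.8 ± 1.74 to 49.3 ± 3.38 CPM) rose 1.61-fold and 1.42-fold. The largest rises of the list, named after their values were seen, were 2 stored proteins. Tissue plasminogen activator, Plat, had 1.11 to 1.51 CPM in controls and 22.2, 207, 225.5, 33.1 and 21.3 CPM in the libraries labelled knockout (81.1-fold, edgeR adjusted p = 0.00158), and 47.4-fold in limma-voom. The granule membrane protein gene Cd63 had 2.21 to 6.50 CPM in controls and 13.7, 67.6, 41.6, 9.65 and 8.55 CPM in the libraries labelled knockout (6.69-fold, edgeR adjusted p = 0.0161). Both were highest in replicates 2 and 3, without which Plat was 20.4-fold and Cd63 2.53-fold higher, and Cd63 was 4.38-fold higher without replicate 2 alone. The Cd63 call ended without control replicate 2 (edgeR adjusted p = 0.0510), in limma-voom (0.0710) and with no filter on counts (0.0682), over a range of 5.68e-04 to 0.146. Also named after their values were seen, von Willebrand factor, Vwf (183 ± 35.5 and 105 ± 108 CPM, edgeR adjusted p = 0.321), and Angpt2 (60.5 ± 15.4 and 35.6 ± 27.9 CPM, 0.265) did not pass. Vwf had 140 to 227 CPM in controls and 44.0, 295, 90.3, 37.9 and 59.0 CPM in the libraries labelled knockout. Angpt2 had 47.3 to 79.8 CPM in controls and 21.5, 44.0, 80.9, 13.96 and 17.6 CPM in the libraries labelled knockout. Replicate 2 for Vwf and replicate 3 for Angpt2 stood above every control, and the others below. The Rab27a effector genes Myrip (4.83 ± 1.92 and 1.51 ± 1.84 CPM, edgeR adjusted p = 0.102), Sytl4 (5.37 ± 0.765 and 4.52 ± 0.395 CPM, 0.235) and Unc13d (36.0 ± 3.62 and 38.7 ± 2.37 CPM, 0.387) did not pass either.

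The endocytic coat and sorting machinery, on which the early endosome members act, included 8 lower and 5 higher of 34 tested, with a median log2 fold change of -0.02. That is 38.2%, beside 39.2% of all genes with a mean of at least 50 CPM in either group. The clathrin adaptor gene Dab2 fell 2.98-fold (1192 ± 163 to 400.2 ± 127 CPM, edgeR adjusted p = 8.93e-04), the sorting nexin gene Snx2 1.94-fold and the clathrin light chain gene Clta 1.56-fold. Picalm, which sizes clathrin-coated vesicles, rose 1.56-fold (699 ± 46.9 to 1088 ± 191 CPM), Epn2 1.53-fold and Stam 1.34-fold.

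**Figure D4:**
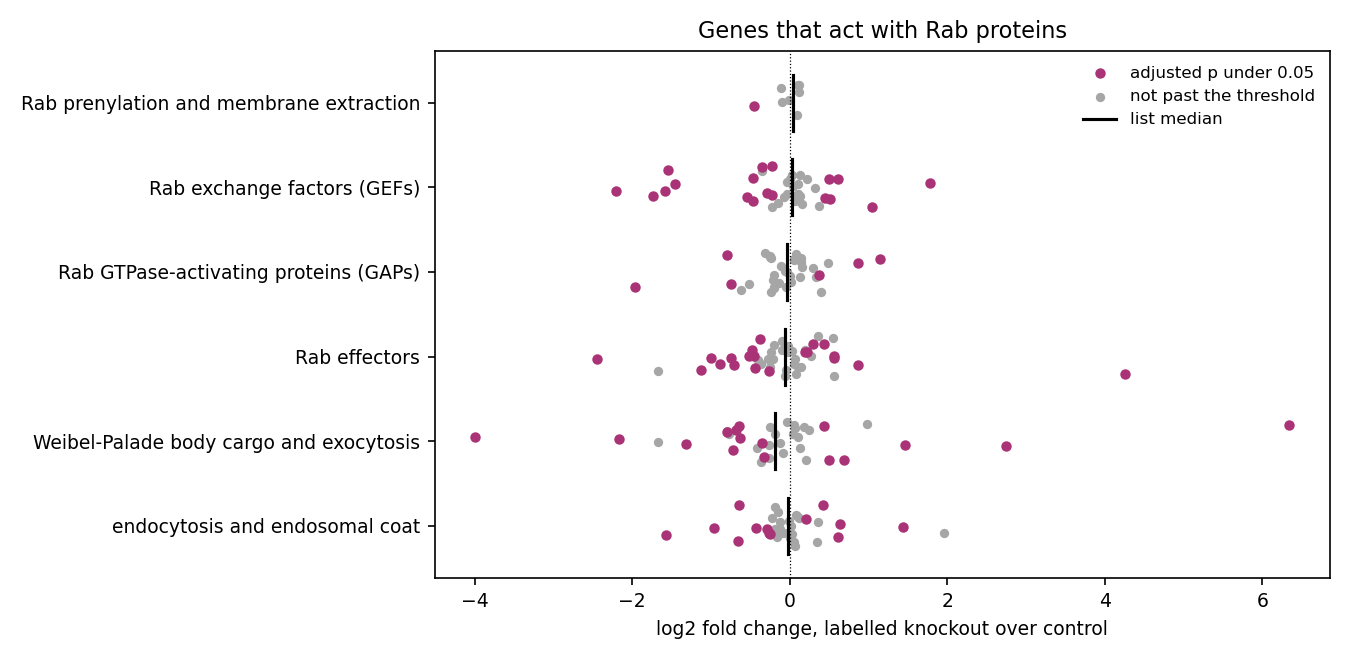
Log2 fold change, libraries labelled knockout over control, of every tested gene in 6 lists of Rab regulators, effectors and trafficking machinery (one point per gene, vertical black lines for list medians). List medians lie between -0.19 and 0.04, with called genes on both sides of 0 in every list but that of prenylation, whose single called gene is lower.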

How the data were processed

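Polyadenylated RNA of 9 libraries of sorted mouse liver endothelial cells was sequenced. The authors deposited raw counts as 1 table keyed by Ensembl identifier. The submitters' processing notes name STAR 2.7.6a, FastQC 0.11.5 and GRCm38. The counter and its strand setting were not given in the sources used here. Per the labels' protocols, TruSeq kits with or without strand information were used, so reads of genes that overlap on opposite strands may be merged. Exons of 7 of the 16 called members overlap another gene. For Rab3b, Rab11b, Rab20, Rab24 and Rab40c that gene lies on the other strand. For Rab27a (Gm27186) and Rab43 (Gm45140) it lies on the same strand, where strand information does not separate reads. No column was left unused (0).

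Symbols came from GENCODE M21 (GRCm38), which matched 52489 of 52636 identifiers. Counts were filtered with filterByExpr (minimum count 10, minimum total 15), TMM-scaled and analysed in edgeR 4.0.16 (R 4.3.3, robust glmQLFit, glmQLFTest) with Benjamini-Hochberg adjustment over 14583 genes. The SE is the size of the log2 fold change over the square root of F. TPM used the union of exon lengths and no TMM scaling. With 200 genes changed in simulated counts (100 each at 2-fold and 4-fold, 14340 genes tested), 68 and 87 were recovered with 11 false calls. A count of 0 allows 3 counts. Floors cover counting error only. At these depths 1 count was worth 0.0260 to 0.0368 CPM. No 2 libraries of a group were copies (chi-square over degrees of freedom at least 20.3).

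The members, the 6 role groups, the 6 pathway lists, the 9 marker lists and the rule for named genes (every called member, members with a 1.5-fold change that missed, and up to 3 genes per list and direction with the smallest p) were chosen with earlier results of these data known. The subfamily shares were chosen after the values were seen. Symbols of 4 list genes (Dennd2b, Zfyve20, Ccdc64 and Garre1) had no match. Some list genes are not reported here by name. Alternatives were DESeq2 1.42.0, voom of limma 3.58.1, glmTreat against a log2 fold change of 1, other scalings and filters, a replicate block, a sex term (sex read from Xist and Ddx3y) and leaving out libraries. Read in this way, control replicates 1, 2 and 4 were male and replicate 3 female. Among the libraries labelled knockout, replicates 1 and 2 were male and replicates 3, 4 and 5 female, so sex was uneven between the groups. Promoter sequences, from RefSeq on GRCm38.p6, were found for 48 of the 59 members.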

Additional observations from a re-analysis of the deposited data

Results flagged for a closer look

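In 6 of 54 group comparisons of the named Rab genes and their sum, 1 library stood apart from its own group by a gap that took most of the group's range; chance gives about 1 in 20. Rab6b in the libraries labelled knockout was highest in replicate 5 at 36.6 CPM, with the next library at 24.3 CPM. Rab29 in controls was lowest in replicate 4 at 20.6 CPM, where the next control had 26.2 CPM. Rab27b and Rab36 in the libraries labelled knockout were both highest in replicate 3, at 1.07 and 2.16 CPM, above 0.463 and 1.02 CPM in the next library. Rab40b in controls was lowest in replicate 4 at 0.207 CPM against 0.819 CPM in the next. Rab30 in controls was highest in replicate 3 at 0.851 CPM against 0.753 CPM.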

How the results depend on the processing

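No called Rab gene changed direction under any of the 20 alternatives in which it was tested (19 for Rab44, which the filter of 5 CPM in 4 libraries removed), and 10 of the 16 kept their call under all of them other than, at most, the test against 2-fold; 12 of 16 kept it whichever single library was left out. Under the test against 2-fold 0 Rab genes were higher and 1 lower (289 and 213 of all genes), and 0 genes of lipid attachment, 3 exchange factors, 0 GTPase-activating proteins, 2 effectors, 2 Weibel-Palade body genes and 0 endocytic genes were called. With the replicate block, in which replicate 5 was left out, 3 Rab genes were higher and 8 lower (1288 and 1370 of all genes), and the calls were 0 for lipid attachment, 12 for exchange factors, 13 for effectors, 10 for Weibel-Palade body genes and 7 for endocytosis. The numbers did not pair the libraries: same-numbered deviations correlated at 0.291, -0.0308, -0.0183 and -0.333. Rab24 (edgeR adjusted p = 0.0536), Rab43 (0.0947), Rab11b (0.125), Rab20 (0.182) and Rab44 (0.193) lost their calls in that fit, as did Tbc1d10c (0.0564), Rinl (0.0624), Fli1 (0.0636), Cd63 (0.0680), Tbc1d15 (0.0820) and Chml (0.0923). A sex term left 0 lipid-attachment calls. Leaving out 1 library gave 4 to 8 higher and 8 to 9 lower Rab genes, 0 to 1 lipid-attachment genes, 13 to 18 exchange factors, 4 to 8 GTPase-activating proteins, 12 to 20 effectors, 11 to 16 Weibel-Palade body genes and 9 to 13 endocytic genes. When replicates 2 and 3 were dropped from the libraries labelled knockout, 9 Rab genes were higher and 8 lower. The summed Rab level was 4.82% lower with TMM scaling (a change of -4.82%), -0.521% in plain CPM and -0.605% in TPM. Members under 1 CPM rest on few counts, which limits their precision.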
